A study of Mus musculus with 2 samples.

Results

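The genes described here encode 5 MS4A membrane proteins (Ms4a6b, Ms4a6c, Ms4a6d, Ms4a4c and Ms4a7) and the pair Tmem176a and Tmem176b. They were picked as a named list of symbols, with earlier results of these data known, and are 7 of 28692 genes listed in the count matrices of both libraries. All 7 were found. The cells came from tumors of 4T1, a mouse triple-negative breast carcinoma line, grown in the mammary fat pad of female BALB/c mice of 8 to 10 weeks. The line 4T1p is the parental, therapy-resistant line, and 4T1m is a polyclonal population derived from it by exposure to the mutagen MNNG that responds to the therapy. Both kinds of tumor were treated with anti-PD1 for 2 weeks, so no untreated tumor is part of the comparison. GR-1+ cells were drawn from the tumors with magnetic beads, and 1 library per line was made with the 10x Genomics 3′ v3 chemistry. How many mice went into a library is not given in the sources used here. With 1 library per tumor type there was no replicate and no test, and the 95% intervals below cover counting error only; they treat UMIs (unique molecular identifiers, 1 per captured transcript) as independent, which UMIs of the same cell need not be.

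Proteins of the MS4A family cross the membrane 4 times, and the best known member is CD20 of B cells, which is encoded by Ms4a1. Other members are carried by macrophages, where they sit at the surface or in endosomes and associate with immune receptors. TMEM176A and TMEM176B are built in a related way and act as cation channels of endosomal and lysosomal membranes in dendritic cells and macrophages. TMEM176B is known as a brake on the NLRP3 inflammasome, the complex that activates caspase-1 and so releases interleukin-1 beta.

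The 5 Ms4a genes lie within 284 kb of chromosome 19 (GRCm38), a stretch that holds 8 of the 19 Ms4a genes annotated on that chromosome. Ms4a7 (ENSMUSG00000024672, chr19:11321039-11336146, minus strand) comes first, followed by Ms4a4c (ENSMUSG00000024675, chr19:11404770-11427246, plus strand). Next are Ms4a6c (ENSMUSG00000079419, chr19:11469366-11482192, plus strand), Ms4a6b (ENSMUSG00000024677, chr19:11516512-11531256, plus strand) and Ms4a6d (ENSMUSG00000024679, chr19:11586604-11604849, minus strand). Tmem176b (ENSMUSG00000029810, chr6:48833818-48841496, minus strand) and Tmem176a (ENSMUSG00000023367, chr6:48840919-48847071, plus strand) start head to head on chromosome 6. Their spans overlap by 578 bases, and 81 exonic bases are shared on opposite strands.

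The sequences before the transcription starts are shown for 4 of the Ms4a genes because the paralogs Ms4a6b and Ms4a6c varied together across clusters (below) and have closely related starts. They are RefSeq windows on GRCm38.p6, read 5′ to 3′ on the gene's strand and limited to bases outside annotated exons. RefSeq windows were found for 6 of the 7 genes, and those of the Tmem176 genes begin, at their upstream end, within an annotated exon of the pair. Capitals mark a match to 1 of 2 letter patterns searched on both strands, which were chosen after the sequences had been read: GAAANNGAA, the core of an interferon-sensitive element, and GAGGAA, the core bound by the myeloid factor PU.1.
Ms4a6c, chr19:11469118-11469365, plus strand: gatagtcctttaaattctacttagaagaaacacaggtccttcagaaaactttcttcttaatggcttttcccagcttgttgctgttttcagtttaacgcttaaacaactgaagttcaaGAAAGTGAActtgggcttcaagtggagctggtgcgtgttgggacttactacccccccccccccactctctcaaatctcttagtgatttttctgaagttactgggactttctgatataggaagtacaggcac
Ms4a6b, chr19:11518309-11518452, plus strand: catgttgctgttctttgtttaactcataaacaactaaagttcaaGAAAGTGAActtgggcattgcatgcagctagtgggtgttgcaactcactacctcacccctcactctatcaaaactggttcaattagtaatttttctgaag
Ms4a7, chr19:11336147-11336396, minus strand: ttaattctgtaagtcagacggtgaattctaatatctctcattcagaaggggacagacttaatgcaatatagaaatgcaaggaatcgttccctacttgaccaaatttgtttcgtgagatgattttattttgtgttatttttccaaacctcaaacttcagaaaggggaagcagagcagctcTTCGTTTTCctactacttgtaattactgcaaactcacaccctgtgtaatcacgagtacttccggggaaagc
Ms4a4c, chr19:11407411-11407660, plus strand: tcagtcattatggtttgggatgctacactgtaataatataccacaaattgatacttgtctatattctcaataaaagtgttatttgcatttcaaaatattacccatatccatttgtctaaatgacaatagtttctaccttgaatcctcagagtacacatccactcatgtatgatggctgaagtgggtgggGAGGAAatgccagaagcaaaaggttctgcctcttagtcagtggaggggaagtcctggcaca

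The interferon-sensitive pattern stood 133 bases before the start of Ms4a6c and 206 bases before that of Ms4a6b, in the same letters and with the same bases around it. Ms4a7 carried it on the reverse strand 71 bases before the start shown, and also 148 bases before another start that is not shown. Ms4a4c had the PU.1 pattern 61 bases before its start. A window of Tmem176a and a window of Tmem176b, not shown, overlap and held the PU.1 pattern at the same bases, so these are not separate matches. In all 32851 windows of 250 bases, the share with the first pattern was 7.13% and with the second 23.3%, so both occur in many promoters. These matches describe letters and are not shown to be sites. Transcripts of Ms4a6b and Ms4a6c share 281 stretches of 31 bases, which may overlap each other, 73 of them within the last 500 bases where 3′ reads fall. Ms4a6b and Ms4a6d shared no such stretch within their last 500 bases. Ms4a4c and its relative Ms4a4b, which is outside the list, share 227 stretches, 90 of them within the last 500 bases. How the counting divided reads from the stretches shared by Ms4a6b and Ms4a6c, or by Ms4a4c and Ms4a4b, is not given in the sources used here.

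The libraries held 1641 barcodes with 9021132 UMIs (labelled 4T1p) and 2749 barcodes with 14840190 UMIs (labelled 4T1m). Their median UMIs per barcode are exchanged relative to the medians stated in the study. The names "library labelled 4T1p" and "library labelled 4T1m", or 4T1p and 4T1m for short, therefore follow the deposited labels, and every direction between them rests on these labels. Were the labels exchanged, each log2 ratio between the libraries would change sign and keep its size. No barcode occurred in both. Limits on detected genes (250 to 5000), on UMIs (27000 at most) and on the mitochondrial share kept 1128 and 2092 cells, together 3220. Clustering without any Ms4a or Tmem176 gene gave 11 clusters. By marker genes, 5 were monocytic-like (1882 cells: 868 from 4T1p, 1014 from 4T1m; markers such as Csf1r and C1qa), 4 granulocytic-like (1273 cells: 251 and 1022; S100a8, Cxcr2), 1 B cell-like (35 cells) and 1 T cell-like (30 cells).

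All 7 genes were expressed mainly in monocytic-like cells, which held between 95.8% (Ms4a6b) and 98.8% (Ms4a6d) of each gene's UMIs. A level is given in CPM, the UMIs of a gene per 1000000 UMIs of a group of cells. Ms4a6d, a macrophage member of the family, reached 593 CPM (579 to 607) in monocytic-like and 20.9 CPM (16.7 to 25.9) in granulocytic-like cells. Its close relative Ms4a6c had 489 CPM (477 to 502) and 16.9 CPM (13.1 to 21.4), and Ms4a6b 207 CPM (199 to 215) and 6.80 CPM (4.48 to 9.89). Ms4a4c, from the neighboring branch of the family, stood at 160 CPM (153 to 167) against 2.52 CPM (1.21 to 4.63). For Ms4a7, which tissue macrophages such as those at the borders of the brain are known to express, the levels were 214 CPM (205 to 222) and 8.31 CPM (5.72 to 11.7). Tmem176a had 137 CPM (130 to 144) and 3.27 CPM (1.74 to 5.60), and Tmem176b 181 CPM (173 to 189) and 7.05 CPM (4.68 to 10.2). For none of the 7 genes did the counting intervals of the lineages overlap. The share of all genes with intervals apart in this way was not counted, so it does not mark out the 7.

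The log2 ratios of CPM of monocytic-like over granulocytic-like cells ran from 4.68 (Ms4a7, 4.19 to 5.23, and Tmem176b, 4.15 to 5.28) to 5.99 (Ms4a4c, 5.11 to 7.05). They compare the cells as captured, and the 10 to 83 UMIs per gene in granulocytic-like cells need not be those cells' own RNA (below). All 7 passed 2-fold, but so did 50.0% of the 6303 genes with at least 200 UMIs in the compared groups, and the median of those genes was 1.00. Past this median the 7 genes still ranged from 3.68 to 4.99. Within the library labelled 4T1p alone the 7 ratios ran from 4.21 to 5.45, with 45.8% of genes past 2-fold. Within the library labelled 4T1m they ran from 4.25 to 6.10, with 48.0% past it.

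Monocytic-like cells of some clusters were much deeper than granulocytic-like cells, so shares of cells were compared after thinning each cell to 1000 UMIs, which kept 1336 monocytic-like and 1166 granulocytic-like cells. Ms4a6d was then detected in 40.4% and 2.49% of cells, Ms4a6c in 35.3% and 1.46%, and Ms4a4c in 11.9% and 0.257%. Tmem176b was detected in 16.1% and 0.858%, and Ms4a7 in 15.3% and 1.03%. Without thinning the shares were 62.5% and 5.34% for Ms4a6d, 34.1% and 1.89% for Tmem176b and 32.6% and 1.96% for Ms4a7. The plot of levels by cluster and library shows this gap between lineages for each gene.

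**Figure D1:**
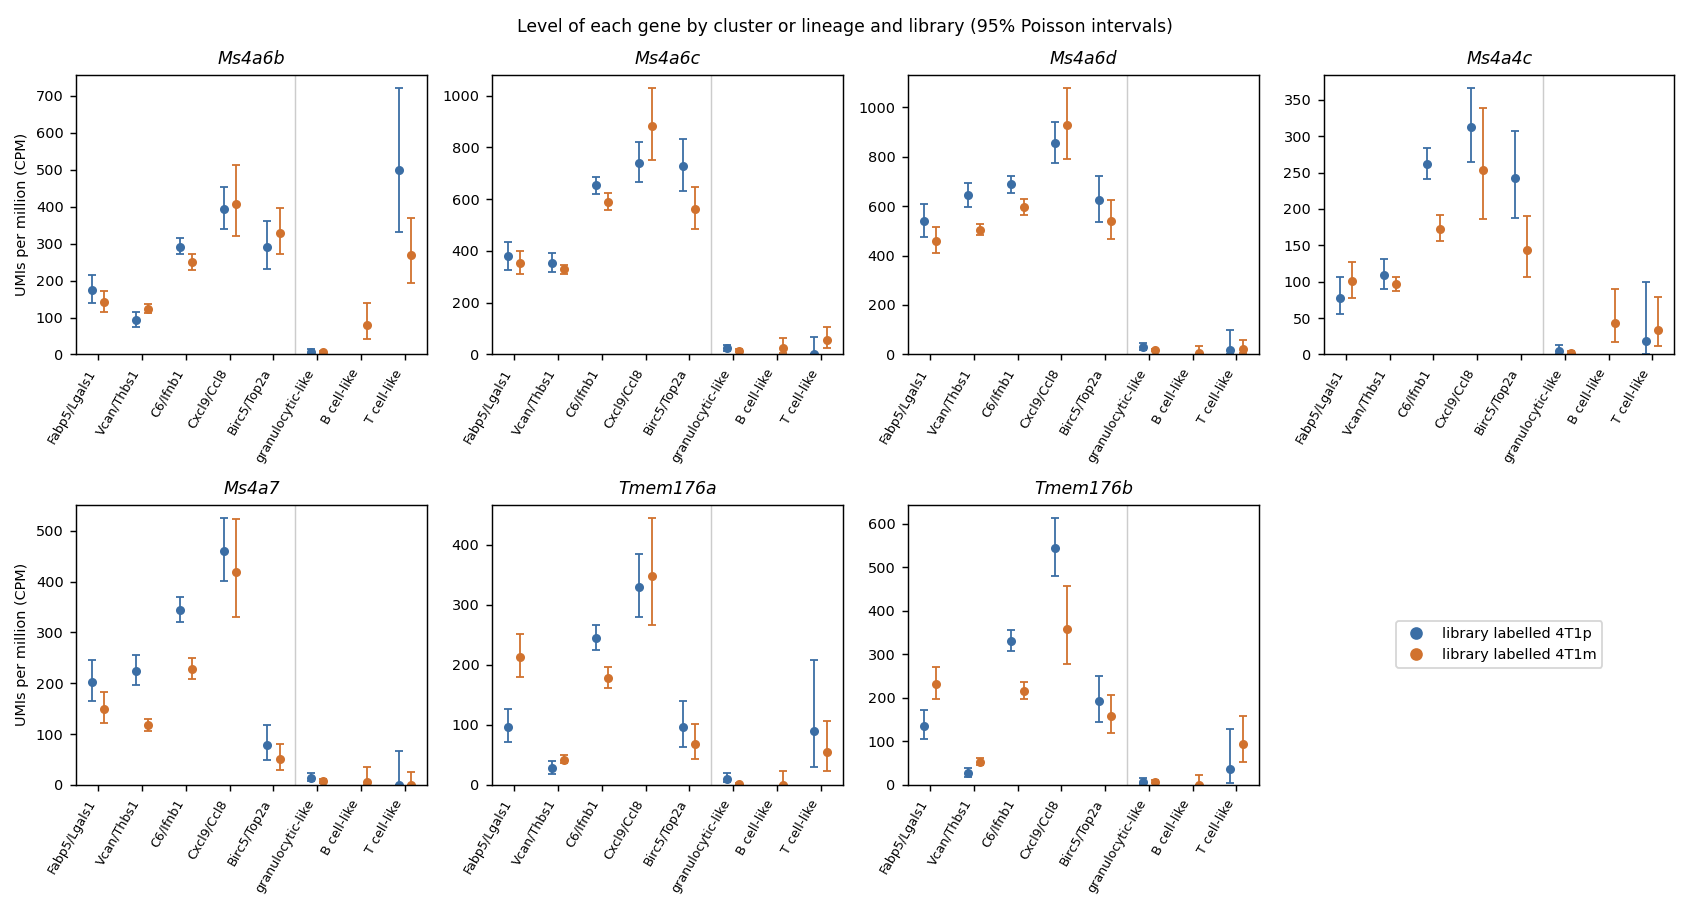
Level of each gene (CPM, linear axis from 0) in the 5 monocytic-like clusters, named by their leading genes, and, right of the grey line, in granulocytic-like, B cell-like and T cell-like cells. Points are 1 library each (blue, labelled 4T1p; orange, labelled 4T1m) and bars are 95% Poisson intervals, which cover counting error only; the 4T1p library had 1 B cell-like cell, which is not drawn. Granulocytic-like points lie near 0 for all 7 genes, and Ms4a6b reaches 500 CPM in the T cell-like cells of the library labelled 4T1p.

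The few UMIs of these genes in granulocytic-like cells were set against C1qa, C1qb and C1qc, complement genes of macrophages that neutrophils lack. Per 100 UMIs of the 3 C1q genes, Ms4a7 had 3.01 UMIs in monocytic-like and 3.81 (2.61 to 5.39) in granulocytic-like cells. Ms4a6d had 8.35 and 9.58, Ms4a6c 6.89 and 7.74, Ms4a6b 2.91 and 3.12, and Tmem176b 2.55 and 3.23, each with the monocytic-like value inside the granulocytic-like interval, as for Tmem176a at 1.93 (0.796 to 2.58 in granulocytic-like cells). Ms4a4c was the exception, at 2.26 in monocytic-like and 1.15 (0.552 to 2.13) in granulocytic-like cells. Within the library labelled 4T1m, Tmem176a was also below, at 2.05 in monocytic-like and 0.787 (0.255 to 1.85) in granulocytic-like cells. In 4T1p, Ms4a6d was at 6.84 (6.60 to 7.10) and 10.8 (6.86 to 16.4), which overlapped at their ends. Whether granulocytic-like cells expressed any of these genes themselves was not tested.

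The same cells were also split by whether they held a UMI of 1 or more of 8 monocytic marker genes. The 795 granulocytic-like cells with such a UMI had 10.8 CPM of Ms4a7, 22.7 CPM of Ms4a6c and 4.83 CPM of Tmem176a. In the 478 cells without one the levels were 3.12 CPM (4 UMIs), 4.68 CPM (6 UMIs) and no UMI. For Ms4a7 (7.22 to 15.5 and 0.851 to 7.99 CPM) and Tmem176a (2.57 to 8.26 and up to 2.88 CPM) the intervals overlapped. For Ms4a6c they were 17.3 to 29.1 and 1.72 to 10.2 CPM. Ms4a6d had 24.9 CPM (19.3 to 31.6) in cells with a marker UMI and 16 UMIs (7.14 to 20.3 CPM) in cells without one, and Tmem176b 8.18 and 4.68 CPM, with overlapping intervals. Ms4a4c had 2.60 CPM from 7 UMIs and 2.34 CPM from 3 UMIs, too few to compare.

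**Figure D2:**
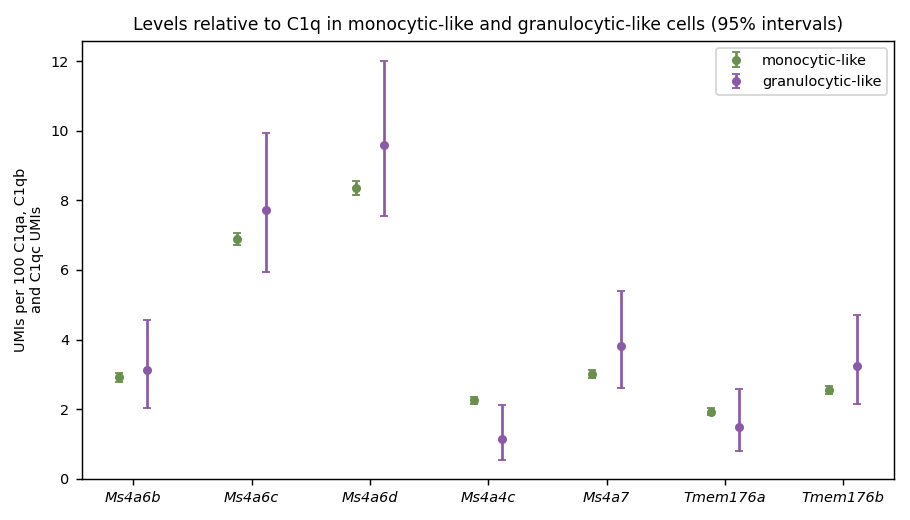
UMIs of each gene per 100 UMIs of C1qa, C1qb and C1qc (linear axis from 0), in monocytic-like (green) and granulocytic-like (purple) cells of both libraries, with 95% intervals for counting error. The intervals of both lineages overlap for 6 genes; for Ms4a4c the granulocytic-like value of 1.15 lies below the monocytic-like value of 2.26.

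In lymphoid cells, which are few here, Ms4a6b stood apart from the other 6 genes. The 30 T cell-like cells held 68 Ms4a6b UMIs, a level of 334 CPM (259 to 423), which was above that of monocytic-like cells by 0.69 on the log2 scale (0.32 to 1.04). It was found in 63.3% of these cells. By library the level was 500 CPM in 8 cells (4T1p) and 271 CPM in 22 cells (4T1m). The 35 B cell-like cells had 79.0 CPM (42.1 to 135) from 13 UMIs.

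No Ms4a7 UMI was found in T cell-like cells, which allows up to 14.7 CPM (3 counts), and no Tmem176a or Tmem176b UMI in B cell-like cells, which allows up to 18.2 CPM. Tmem176a and Tmem176b reached 63.8 and 78.5 CPM in T cell-like cells, both below monocytic-like cells, Tmem176a by a log2 ratio of -1.10. Of the genes with a UMI, 5 of 6 were over 2-fold lower in T cell-like than in monocytic-like cells, where 24.3% of all genes tested were, and 5 of 5 in B cell-like cells, where 30.5% were. Both percentages count genes without a UMI in the lymphoid cells as lower. The counts set beside them leave such genes out, so the rules differ.

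Other genes of the family kept to their known cells. Ms4a1, the CD20 gene, had 135 of its 155 UMIs (87.1%) in B cell-like cells, at 821 CPM. Ms4a4b, known from T cells, had 114 of 153 UMIs (74.5%) in T cell-like cells, at 559 CPM. Ms4a4a, Ms4a8a and Ms4a14 were monocytic-like at lower levels of 21.9, 13.3 and 4.48 CPM. The other 9 listed genes of both families had under 10 UMIs each.

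Among monocytic-like cells the levels differed by cluster, and the Tmem176 pair varied most. The clusters are named by their leading genes. C6/Ifnb1 cells (359 cells: 182 from 4T1p, 177 from 4T1m) were led by interferon-linked genes such as Ifit2 and Cxcl9, and Vcan/Thbs1 cells (433 cells: 97 and 336) by Vcan, Thbs1, Met and Il6. Both were deep, with medians of 13710 and 10600 UMIs per cell. Fabp5/Lgals1 cells (625 cells: 283 and 342), Cxcl9/Ccl8 cells (284 cells: 217 and 67) and proliferating Birc5/Top2a cells (181 cells: 89 and 92) were shallow, with medians of 908, 1457 and 1507 UMIs. In those 3 clusters the pan-leukocyte gene Ptprc was found in 18.6%, 28.2% and 27.1% of cells, against 91.2% of Vcan/Thbs1 and 84.1% of C6/Ifnb1 cells. The part of depth in the differences between deep and shallow clusters was not tested, and comparisons are therefore given between clusters of like depth as well.

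Tmem176b had 493 CPM (441 to 549) in Cxcl9/Ccl8 cells, 275 CPM (260 to 290) in C6/Ifnb1 cells, 190 CPM (166 to 217) in Fabp5/Lgals1 cells and 174 CPM (143 to 210) in proliferating cells. Its lowest level was 47.0 CPM (41.1 to 53.6) in Vcan/Thbs1 cells. This is the order of the pooled cells. In each library alone Cxcl9/Ccl8 cells were highest and Vcan/Thbs1 cells lowest, but Fabp5/Lgals1 cells took different places between them, below proliferating cells in 4T1p (135 and 192 CPM) and level with C6/Ifnb1 cells in 4T1m (231 and 216 CPM). Tmem176a had 334 CPM (292 to 381), 212 CPM (199 to 226) and 163 CPM (141 to 188) in the first 3 of these clusters, 80.5 CPM (59.7 to 106) in proliferating cells and 38.7 CPM (33.4 to 44.7) in Vcan/Thbs1 cells. Its Fabp5/Lgals1 cells likewise stood at the level of proliferating cells in 4T1p (95.6 and 96.2 CPM) and above C6/Ifnb1 cells in 4T1m (213 and 178 CPM). Without the cell of each cluster with the most Tmem176a UMIs, these 4T1m levels were 145 and 173 CPM, in the reverse order.

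Ms4a7 had 449 CPM (400 to 503) in Cxcl9/Ccl8, 287 CPM (272 to 303) in C6/Ifnb1, 173 CPM (150 to 198) in Fabp5/Lgals1, 140 CPM (130 to 151) in Vcan/Thbs1 and 62.8 CPM (44.6 to 85.8) in proliferating cells. It was thus lowest in proliferating cells, where 39 UMIs were counted and 6.11% of thinned cells carried it. Ms4a6b did not share this drop, with 312 CPM (270 to 360) in proliferating cells, 397 CPM (351 to 448) in Cxcl9/Ccl8 cells and its lowest level of 118 CPM (108 to 128) in Vcan/Thbs1 cells. Ms4a4c ranged from 91.0 CPM (74.5 to 110) in Fabp5/Lgals1 and 99.1 CPM (90.4 to 108) in Vcan/Thbs1 cells, which overlapped, to 297 CPM (257 to 341) in Cxcl9/Ccl8 cells. Ms4a6d was the most even of the 7, between 493 CPM (454 to 535) in Fabp5/Lgals1 and 873 CPM (804 to 947) in Cxcl9/Ccl8 cells, and Ms4a6c lay between 334 CPM (318 to 351) in Vcan/Thbs1 and 779 CPM (714 to 849) in Cxcl9/Ccl8 cells.

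Each cluster was set against the other monocytic-like cells, with a 2-fold difference as the mark, and 11 of the 35 pairs of gene and cluster passed it. In Vcan/Thbs1 cells 4 genes were lower, Tmem176b by a log2 ratio of -2.53 (-2.74 to -2.33), Tmem176a by -2.40 (-2.62 to -2.17), Ms4a6b by -1.19 and Ms4a4c by -1.03, where 3.69% of 5742 genes were lower. Within the library labelled 4T1m, which gave 336 of the 433 cells, Ms4a6b (-0.98) and Ms4a4c (-0.73) did not reach the mark and the Tmem176 pair did (-2.13 for Tmem176a, -2.07 for Tmem176b). In C6/Ifnb1 cells Tmem176a (1.24, 1.10 to 1.39) and Tmem176b (1.17, 1.05 to 1.30) were higher, where 1.95% of genes were, although in 4T1p alone Tmem176b was at 0.88. In Cxcl9/Ccl8 cells Tmem176b (1.60, 1.43 to 1.77), Tmem176a (1.42), Ms4a7 (1.17) and Ms4a6b (1.02) were higher, against 2.79% of genes, and none was lower, against 27.1%. In 4T1p alone, which gave 217 of the 284 cells, Ms4a7 (0.72) and Ms4a6b (0.78) did not reach the mark, and the Tmem176 pair did (1.02 for Tmem176a, 1.29 for Tmem176b). The median gene of Cxcl9/Ccl8 cells lay at -0.29, so that past it these ratios would be larger still.

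Proliferating cells had 1 gene past 2-fold lower, Ms4a7 (-1.82, -2.32 to -1.37), where 10.6% of genes were. Fabp5/Lgals1 cells of both libraries together had none, with 0.784% of genes higher and 10.2% lower. In 4T1p alone 1 of the 7 genes, Ms4a4c, was past 2-fold lower in these cells, from 39 UMIs, where 11.4% of genes were. In Fabp5/Lgals1 cells the pooled ratios of the Tmem176 pair, 0.29 for Tmem176a and 0.08 for Tmem176b, came from opposite directions in the libraries. Against the other monocytic-like cells of their own library, Fabp5/Lgals1 cells had Tmem176a at -0.99 in 4T1p and 1.12 in 4T1m, and Tmem176b likewise lay below in 4T1p and above in 4T1m (0.91). In the library labelled 4T1m alone Tmem176a was the 1 gene of the 7 past 2-fold higher, where 0.953% of genes were. A single cell held 49 of the 144 Tmem176a UMIs of these cells, and without it their level was 145 CPM. That level is less than 2-fold above the other monocytic-like cells of 4T1m, so the call of Tmem176a there rested on that cell. The count of 11 became 7 of 21 pairs when only cells with a Ptprc UMI were used. That run had fewer pairs, and its share of all genes past the mark is not given here, so these counts cannot be compared directly.

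The deep clusters C6/Ifnb1 and Vcan/Thbs1 were compared directly. Tmem176b was higher in C6/Ifnb1 cells by 2.55 on the log2 scale (2.34 to 2.76) and Tmem176a by 2.45 (2.22 to 2.69). Ms4a6b (1.21), Ms4a4c (1.14) and Ms4a7 (1.04) also passed 2-fold, and Ms4a6c (0.90) and Ms4a6d (0.27) did not. So 5 of 7 genes were past 2-fold higher where 3.52% of 5060 genes were. After thinning, 18.8% of C6/Ifnb1 and 4.02% of Vcan/Thbs1 cells had Tmem176b, 17.6% and 3.55% had Tmem176a, and 24.0% and 7.80% had Ms4a7.

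The direction was the same in both libraries for each of the 5 genes. Tmem176b differed by 3.66 in 4T1p and 2.04 in 4T1m, Tmem176a by 3.17 and 2.09, Ms4a4c by 1.27 and 0.84, and Ms4a7 by 0.62 and 0.96. In the library labelled 4T1p 4 of the 7 genes passed 2-fold (background 5.05%) and in the library labelled 4T1m 3 of 7 (background 3.01%). Of the shallow clusters, Cxcl9/Ccl8 cells were above Fabp5/Lgals1 cells in 6 of 7 genes past 2-fold, where 5.11% of 1193 genes were, from 1.03 (Tmem176a) to 1.71 (Ms4a4c). In the pooled cells Ms4a6d (0.83) was the 1 gene below the mark. By library, Tmem176a was at 1.78 in 4T1p and 0.70 in 4T1m, and Tmem176b at 2.00 and 0.63, so that the pair passed in 4T1p alone. Ms4a6c was at 0.97 in 4T1p and 1.32 in 4T1m, and Ms4a6d at 0.67 and 1.01.

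Genes of other pathways were read from lists of known function beside the 7 genes. Between C6/Ifnb1 and Vcan/Thbs1 cells, 6 of 6 genes of MHC class II presentation were past 2-fold higher (median log2 ratio 2.11). So were 5 of 5 interferon response genes that had enough UMIs (median 1.60), where 3.52% of all genes tested were. Of the inflammasome genes 0 of 5 passed 2-fold (median -0.02), with Nlrp3 at -0.32 and Il1b at -0.20. In Cxcl9/Ccl8 cells 5 of 6 MHC class II genes were higher than in the other monocytic-like cells (H2-Eb1 at 1.51, H2-Aa at 1.29), but 3 of 5 interferon genes were lower (median -1.12). Of all genes, 2.79% were past 2-fold higher and 27.1% lower in these cells, with a median of -0.29. There Nlrp3 (-3.29) and Il1b (-1.86) were lower and Casp1, the caspase of the inflammasome, was higher (1.25). Hemoglobin genes, which mark erythroid RNA, were 3 of 3 lower in C6/Ifnb1 than in Vcan/Thbs1 cells (median -7.89), where 4.43% of all genes were. The shares of cells with a UMI lay closer, 8.36% and 8.31% for Hbb-bs, 1.67% and 2.31% for Hba-a1 and 1.39% and 3.23% for Hba-a2. The part of hemoglobin RNA in the result was not tested.

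A finer clustering, at a Louvain resolution of 1.2, gave 8 monocytic-like clusters and separated groups in which the genes parted. In Cd163/Lyve1 cells (107 cells: 19 from 4T1p, 88 from 4T1m), led by genes of perivascular and tissue-resident macrophages, Ms4a4c had 36.0 CPM from 37 UMIs, below the other monocytic-like cells by a log2 ratio of -2.26 (in 4T1p alone -2.52, in 4T1m -1.97). Ms4a7 had 305 CPM in the same cells and lay above the others by 0.58. Tmem176b was lower at -1.31, so that 2 of 7 genes passed 2-fold lower, where 4.04% of genes did. By library it was at -1.79 in 4T1p, from 14 UMIs, and at -0.87 in 4T1m, which did not reach the mark. In Rnase2a/Fcna cells (86 cells: 55 and 31), whose leading genes also include Folr2, Ms4a7 was again higher, at 359 CPM and 0.79, and Ms4a4c lower, at 89.2 CPM and -0.87. None of the 7 was past 2-fold lower there, where 6.64% of genes were.

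Sdc1/Met cells (328 cells) carried the lowest Tmem176 levels, with both genes at -2.64, Ms4a7 at -1.52 and Ms4a6b at -1.19, and 4 of 7 genes past 2-fold lower against 4.65% of all. Ms4a6b was at -0.98 there in 4T1m alone. Ifnb1/Ifit2 cells (274 cells) had Tmem176a at 1.12 and Tmem176b at 1.05, 2 of 7 past 2-fold higher against 1.83%, but in 4T1p alone they were at 0.96 and 0.72. Ccl8/H2-Eb1 cells (249 cells) had Tmem176b at 1.70, Tmem176a at 1.54 and Ms4a7 at 1.17, 3 of 7 against 2.63%, with Ms4a7 at 0.69 in 4T1p alone. The map of the finer clusters shows that Ms4a7 and Ms4a4c parted in Cd163/Lyve1 and Rnase2a/Fcna cells and that Ms4a7 and Ms4a6b parted in proliferating cells.

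**Figure D3:**
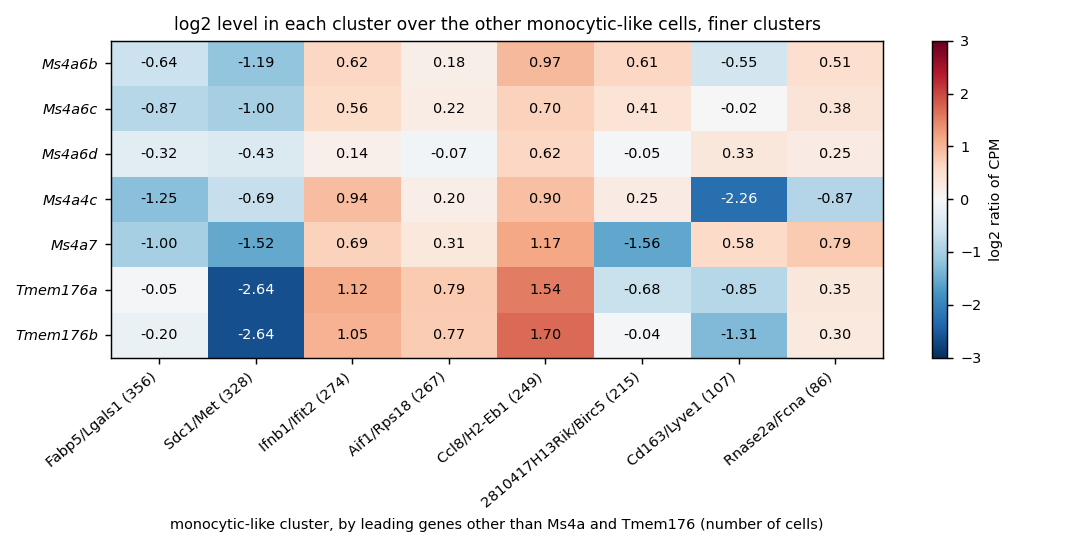
Log2 ratio of CPM in each of 8 finer monocytic-like clusters over the other monocytic-like cells, for the 7 genes (columns are clusters by leading genes, with the number of cells; color scale from -3, blue, to 3, red). The lowest values are those of Tmem176a and Tmem176b in Sdc1/Met cells (-2.64 each) and Ms4a4c in Cd163/Lyve1 cells (-2.26), and the highest is Tmem176b in Ccl8/H2-Eb1 cells (1.70).

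Between the libraries, all 7 genes had lower levels in the monocytic-like cells of the library labelled 4T1m. Tmem176b had 256 CPM (241 to 271) in 4T1p and 133 CPM (125 to 142) in 4T1m, a log2 ratio of -0.94 (-1.07 to -0.82). Ms4a7 had 298 CPM (283 to 315) and 159 CPM (150 to 169), a ratio of -0.91 (-1.02 to -0.79). Tmem176a had 180 CPM (168 to 192) and 109 CPM (102 to 117), and Ms4a4c 212 CPM (199 to 226) and 127 CPM (119 to 135), with ratios of -0.72 and -0.74. The 3 Ms4a6 genes differed less, with Ms4a6b at 246 and 182 CPM (-0.44), Ms4a6c at 570 and 437 CPM (-0.38) and Ms4a6d at 675 and 541 CPM (-0.32). Counting intervals of the libraries did not overlap for any of the 7. How many of all genes had such intervals apart was not counted, so this does not set the 7 apart from other genes. Their relative Ms4a4a, a macrophage gene that is not among the 7, went the other way, with 13.6 CPM in 4T1p and 27.2 CPM in 4T1m (0.99, 0.58 to 1.43).

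None of the 7 passed 2-fold, where 6.91% of 5742 genes were past it higher and 1.22% lower in 4T1m. The median gene lay at 0.14, and relative to this median Ms4a7 and Tmem176b would both pass the mark. After thinning, Ms4a7 was found in 20.9% (17.6 to 24.5) of 564 cells in 4T1p and 11.3% (9.13 to 13.7) of 772 cells in 4T1m, and Tmem176a in 14.9% and 9.33%. The markers of other cells differed too. Summed over the monocytic-like cells, 3 hemoglobin genes had 13.2 CPM in 4T1p and 1550 CPM in 4T1m, 10 monocytic markers 30136 and 17859 CPM, and 8 granulocytic markers 897 and 1274 CPM. Without cells that held a hemoglobin UMI, still 0 of the 7 passed 2-fold, and the part of the other markers in the result was not tested.

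The genes were also measured against the C1q genes, which were themselves lower in 4T1m (9863 and 5333 CPM), so that this scale raises every gene alike in 4T1m. Per 100 C1q UMIs, Ms4a7 had 3.03 UMIs (2.87 to 3.19) in 4T1p and 2.99 (2.81 to 3.17) in 4T1m, and Tmem176b 2.59 (2.45 to 2.75) and 2.49 (2.34 to 2.66), which overlapped. The other 5 genes, whose CPM differed less than that of C1q, were higher in 4T1m on this scale, Ms4a6b with 2.49 (2.35 to 2.64) and 3.41 (lower bound 3.22), Ms4a6c with 5.78 and 8.20, Ms4a6d with 6.84 and 10.1, Ms4a4c with 2.15 and 2.38, and Tmem176a with 1.82 and 2.05, the intervals of the last pair of genes overlapping.

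Of the lists, 4 of 6 MHC class II genes passed 2-fold lower in monocytic-like cells of 4T1m (median -1.06), and 1 of 5 interferon response genes did (median -0.58, Irf7 at -1.73). Among the inflammasome genes 0 of 5 passed in either direction (median -0.09). Nlrp3, at 386 CPM in 4T1p and 757 CPM in 4T1m, and Il1b, at 2343 and 4670 CPM, were higher in 4T1m by just under 2-fold. Of all genes, 1.22% were past 2-fold lower and 6.91% higher in 4T1m. Trem2, a lipid receptor of macrophages, was at -0.56 and its adaptor Tyrobp at -0.10.

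The clusters held unequal shares of the libraries, so the libraries were also compared within each cluster. Ms4a7 had lower levels in 4T1m in all 5. Its log2 ratio was -0.94 (-1.17 to -0.70) in Vcan/Thbs1 cells, from 224 CPM to 117 CPM, and -0.59 (-0.76 to -0.43) in C6/Ifnb1 cells, from 345 CPM to 228 CPM. In Fabp5/Lgals1 cells it was -0.44 (-0.85 to -0.03), and in Cxcl9/Ccl8 and proliferating cells the intervals included 0.

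The Tmem176 pair did not keep 1 direction. In C6/Ifnb1 cells Tmem176b had 331 CPM (308 to 355) in 4T1p and 216 CPM (197 to 236) in 4T1m, a ratio of -0.62 (-0.78 to -0.45), and Tmem176a 245 and 178 CPM, a ratio of -0.46 (-0.65 to -0.27). In Cxcl9/Ccl8 cells Tmem176b was also lower in 4T1m, at 543 and 358 CPM (-0.60, -1.01 to -0.20). In Vcan/Thbs1 cells it was higher in 4T1m, at 26.2 CPM (17.3 to 38.1) from 27 UMIs and 52.7 CPM (45.7 to 60.6) from 199 UMIs, a ratio of 1.01 (0.43 to 1.65). Tmem176a had 27.2 and 41.9 CPM there, a ratio of 0.62 (0.04 to 1.26). Taken relative to the median gene of that cluster (0.12), Tmem176b was at 0.89 (0.31 to 1.53), and the interval of Tmem176a included 0 (0.51, -0.08 to 1.14).

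In Fabp5/Lgals1 cells Tmem176a had 95.6 CPM (70.5 to 127) from 48 UMIs in 4T1p and 213 CPM (180 to 251) from 144 UMIs in 4T1m, a ratio of 1.16 (0.68 to 1.66). A single cell held 49 of those 144 UMIs, found in 40 cells, and the ratio was 0.83 (0.28 to 1.40) without the cell of each library that had the most UMIs of the gene, and 0.23 as a ratio of mean CPM per cell. Tmem176b had 135 and 231 CPM, a ratio of 0.77 (lower bound 0.35), which was 0.69 (0.25 to 1.15) without the cells with the most UMIs and 0.01 as a ratio of mean CPM per cell. In thinned cells of this cluster Tmem176a was found in 5.88% (4T1p) and 9.59% (4T1m) and Tmem176b in 10.9% and 17.8%, with overlapping intervals. The ratios of the pair in these shallow cells thus stayed above 0 in summed UMIs and were near 0 when each cell counted equally.

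In Vcan/Thbs1 cells, Tmem176b kept its direction as a ratio of mean CPM per cell (0.48) and without the cells with the most UMIs (1.15, 0.52 to 1.84), although after thinning it was found in 3.30% and 4.22% of cells. Ms4a6b was at 0.42 (0.10 to 0.75) in Vcan/Thbs1 cells and at -0.23 (-0.39 to -0.07) in C6/Ifnb1 cells, and relative to the median gene the first of these intervals included 0 (0.30, -0.02 to 0.63). Ms4a4c had 262 and 173 CPM in C6/Ifnb1 cells, a ratio of -0.60, and -0.75 (-1.31 to -0.20) in proliferating cells. The library plot by cluster shows that the pooled ratio of Tmem176b, -0.94, lay below all of its ratios within clusters. So did those of Tmem176a (-0.72, lowest cluster -0.51), Ms4a6b (-0.44, lowest -0.32) and, narrowly, Ms4a6c (-0.384, lowest -0.374). The pooled ratios of Ms4a7 (-0.91), Ms4a4c (-0.74) and Ms4a6d (-0.32) lay inside the range of their clusters.

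**Figure D4:**
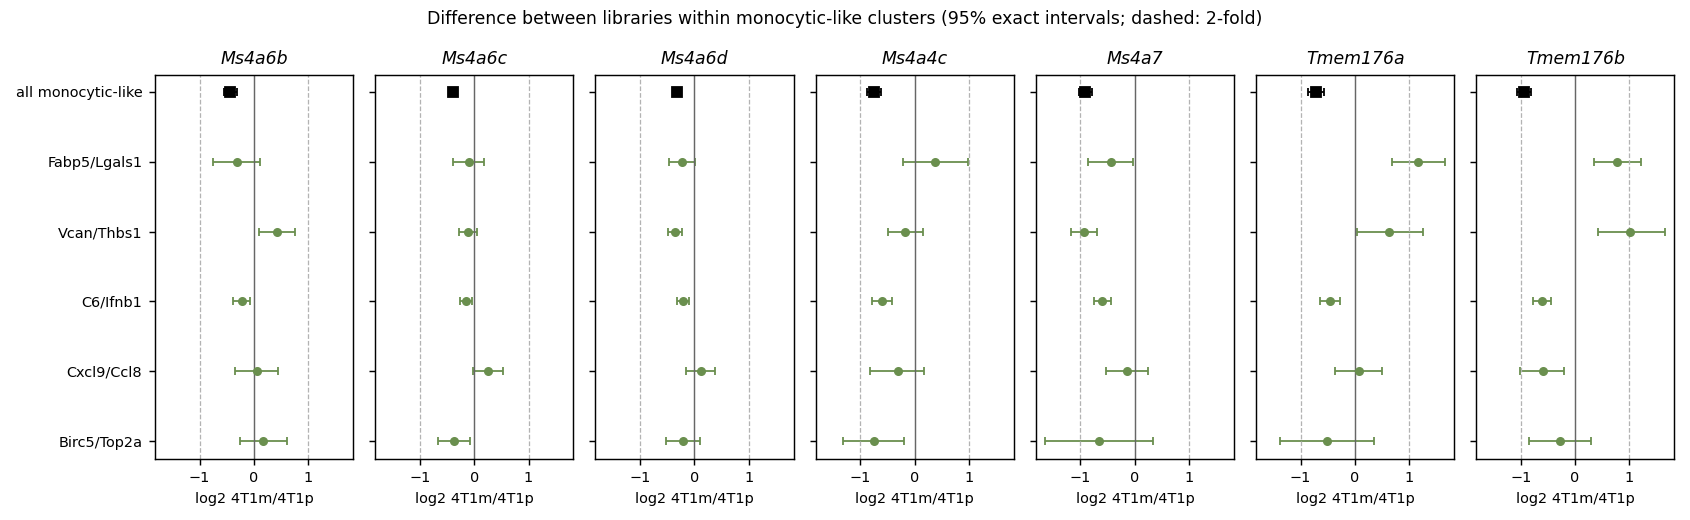
Log2 ratio of CPM, library labelled 4T1m over library labelled 4T1p, in all monocytic-like cells (black squares) and in each of the 5 monocytic-like clusters (green points), with 95% exact intervals for counting error; dashed lines mark 2-fold. All squares lie left of 0, while Tmem176a and Tmem176b lie right of 0 in Fabp5/Lgals1 and Vcan/Thbs1 cells (Tmem176b 0.77 and 1.01) and Tmem176b lies left of 0 in C6/Ifnb1 cells (-0.62).

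Genes past 2-fold between the libraries made up 2.98% (higher in 4T1m) and 1.81% (lower) in Fabp5/Lgals1 cells, 4.58% and 0.861% in Vcan/Thbs1 cells, 6.06% and 1.37% in C6/Ifnb1 cells, 1.34% and 2.23% in Cxcl9/Ccl8 cells and 3.49% and 4.37% in proliferating cells. Of the 7 genes, 4, 6, 7, 6 and 2 had the 200 UMIs needed to be counted in these clusters, and 1 was past 2-fold, Tmem176b in Vcan/Thbs1 cells. Tmem176a in Fabp5/Lgals1 cells was past it with 192 UMIs and so was not counted.

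Among the finer clusters, Tmem176b in Sdc1/Met cells had 15.6 CPM in 4T1p and 46.5 CPM in 4T1m, a ratio of 1.57 (0.75 to 2.52) from 13 and 138 UMIs. Ms4a7 was lower in 4T1m in Cd163/Lyve1 cells, at 550 and 252 CPM (-1.13, -1.47 to -0.77), and in Rnase2a/Fcna cells, at 444 and 216 CPM (-1.04). Both are states in which Ms4a7 was above the other monocytic-like cells. Ccl8/H2-Eb1 cells, where it was above them too, had a ratio of -0.03 (-0.46 to 0.37). Sdc1/Met cells, where it was below them, had -0.84 (-1.16 to -0.51).

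In granulocytic-like cells no difference between the libraries could be read. Each gene had 10 to 83 UMIs, none reached 200, and the background was 5.03% of 1989 genes past 2-fold higher and 2.51% lower in 4T1m. Tmem176a had 8 UMIs (9.71 CPM) in 4T1p and 5 UMIs (1.59 CPM) in 4T1m, a ratio of -2.61 (-4.57 to -0.82), and for the other 6 genes the interval included 0.

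Across cells, Tmem176a was detected more often beside Tmem176b than without it. Of 1336 thinned monocytic-like cells, Tmem176a was detected in 30.2% (24.2 to 36.8) of the 215 cells with Tmem176b and in 8.12% (6.59 to 9.87) of the 1121 cells without it. Within clusters the shares were 29.4% and 2.46% in Vcan/Thbs1 cells, 35.5% and 13.5% in C6/Ifnb1 cells, 23.1% and 5.31% in Fabp5/Lgals1 cells and 37.8% and 23.7% in Cxcl9/Ccl8 cells. The share of 29.4% in Vcan/Thbs1 cells was 5 of 17 cells (10.3 to 56.0). In Cxcl9/Ccl8 cells the intervals overlapped (26.8 to 49.9 and 16.2 to 32.6). Proliferating cells had the reverse order, with 4.35% and 5.56%, also with overlapping intervals. Ms4a6c was found in 47.9% of cells with Ms4a6b and 32.5% of cells without, a pair whose transcripts share sequence, and in 44.6% of cells with Ms4a6d and 28.9% of cells without. Within each of the 5 clusters the intervals of both comparisons overlapped, with 55.7% and 53.5% for Ms4a6b in Cxcl9/Ccl8 cells.

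Over the 10 groups of monocytic-like cells formed by cluster and library, log2 levels of Tmem176a and Tmem176b had a Pearson correlation of 0.95, Ms4a6b and Ms4a6c of 0.93, and Ms4a6c and Ms4a4c of 0.93. Ms4a7 was less like Ms4a6b (0.19), Ms4a6c (0.31) and Ms4a4c (0.40) than like Ms4a6d (0.69). These are descriptions over groups that share libraries and depths. Among 6409 genes, the levels most like those of Tmem176b over these 10 groups were those of Ctc1 (0.96), Ldhb (0.95) and Cxcl9 (0.93), and for Ms4a7 Pdcd1lg2, which encodes PD-L2, came first (0.95). The first gene was C1qc for Ms4a6b (0.96), Mndal for Ms4a6c (0.99), Fcer1g for Ms4a6d (0.92), Lair1 for Ms4a4c (0.96) and Cd81 for Tmem176a (0.94).

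Over all 18 myeloid groups, which include the difference between lineages, the most similar genes were Hexa for Ms4a7 (0.98, followed by Gm9493 and Trem2), C1qc for Ms4a6b (0.99, then Ptms and C1qa), Ndufc2 for Ms4a6c (0.98, then Ifi30 and Emc10) and Ctss for Ms4a6d (0.99, then Lgmn and Cxcl16). They were Ebpl for Ms4a4c (0.99, then Pld4 and Acads), 1810011H11Rik for Tmem176a (0.95, then Hddc2 and Atox1) and H2-DMb2 for Tmem176b (0.97, then Cd72 and Ctc1).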

How the data were processed

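Tumor GR-1+ cells were profiled with the 10x Genomics 3′ v3 chemistry. Reads were aligned by the authors with Cell Ranger (GRCm38), and the deposited matrices hold raw UMI counts before any filter on cell quality. Genes go by symbol; 58 symbols were listed more than once and the first identifier kept the symbol. The 7 genes, the gene lists and the comparisons were chosen with earlier results of these data known.

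Barcodes were kept with 250 to 5000 genes, at most 27000 UMIs and at most 12.5% mitochondrial UMIs. Gm42418 and AY036118 were left out of the totals. Doublets were not removed in the values reported; leaving out the cells with the highest Scrublet scores (1% per 1000 cells) was an alternative. Counts were normalized with SCTransform (3000 variable genes, without Ms4a and Tmem176 genes) and clustered on 11 principal components with Louvain at 0.8. A cluster was B cell-like or T cell-like where 2 of 3 markers were detected in 25% or more of its cells, and otherwise took the lineage whose markers had the higher share of cells.

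Levels are CPM of the deposited counts with exact Poisson intervals. Ratios are log2 ratios of CPM with intervals from the exact binomial share of both counts. A gene was counted as past 2-fold where it had at least 200 UMIs in the compared groups. With 1 library per condition no p-value was computed, in place of the study's test over cells, and there is nothing to pair. Named genes are the 7 genes, other Ms4a and Tmem176 genes with at least 10 UMIs, for each gene the 3 most like it by Pearson correlation of log2(CPM + 1) over groups of at least 20 cells, and the marker and pathway lists. The finer clusters, the ratios to C1q and the promoter patterns were chosen after seeing the data.

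On simulated counts for monocytic-like cells of both libraries (28690 genes), the interval held the true ratio for 95.6% of 5563 unchanged genes, and 100% of 87 genes changed 4-fold and 1.06% of 94 genes changed 1.5-fold were past 2-fold. In the same comparison the interval held for 91.5% of the genes changed 1.5-fold and 96.6% of those changed 4-fold. For C6/Ifnb1 over Vcan/Thbs1 cells it held for 95.4% of 4851 unchanged genes. The counts were drawn independently for each gene, as the interval assumes, so its coverage was set by the drawing. UMIs gathered in single cells were not simulated. Clustering ran in R 4.3.3 (Seurat 5.3.0, sctransform 0.4.2, Matrix 1.6.5). All else ran in Python 3.11.15 (pandas 2.3.3, scipy 1.17.1, numpy 2.4.6, scanpy 1.11.5, matplotlib 3.10.9). GENCODE vM21 gave gene positions and RefSeq the promoters.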

Additional observations from a re-analysis of the deposited data

Results flagged for a closer look

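For 3 genes the library labelled 4T1m lay above the library labelled 4T1p in some monocytic-like clusters and below it in others, each with a counting interval that left out 0; the differences between clusters were not tested. Tmem176b had log2 ratios of 1.01 in Vcan/Thbs1 cells and 0.77 in Fabp5/Lgals1 cells, and of -0.62 in C6/Ifnb1 and -0.60 in Cxcl9/Ccl8 cells. Tmem176a had 1.16 in Fabp5/Lgals1 and 0.62 in Vcan/Thbs1 cells, and -0.46 in C6/Ifnb1 cells. Ms4a6b had 0.42 in Vcan/Thbs1 and -0.23 in C6/Ifnb1 cells. Relative to the median gene of Vcan/Thbs1 cells, the intervals of Tmem176a and Ms4a6b there included 0. In Fabp5/Lgals1 cells the ratios of mean CPM per cell were 0.01 for Tmem176b and 0.23 for Tmem176a. A single cell of 4T1m held 49 of the 144 Tmem176a UMIs of that cluster and library.

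Barcodes outside the limits on genes, UMIs and mitochondrial share, which the comparisons did not use, also held UMIs of the 7 genes. Summed over the genes, their level was 1608 CPM (1565 to 1651) in 513 such barcodes of the library labelled 4T1p and 1020 CPM (989 to 1053) in 657 of the library labelled 4T1m. In the kept cells the sums were 2067 and 1168 CPM.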

How the results depend on the processing

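No paired analysis was possible because each condition has 1 library. Over the lineages, all 7 genes stayed past 2-fold higher in monocytic-like cells under each alternative run (6 of 6 tested after thinning), with log2 ratios from 3.68 to 6.71. Between the libraries in monocytic-like cells, the count of 0 past 2-fold became 2 with a mitochondrial limit of 5% (Tmem176a, Tmem176b), 2 after thinning and 2 with the median ratio set to 0 (Ms4a7 and Tmem176b in both), 1 with mean CPM per cell (Ms4a7), 4 at a mark of 1.5-fold, and 1 with Vcan/Thbs1 and C6/Ifnb1 cells alone (Tmem176b; chosen after seeing the data). With the 5 clusters weighted equally, also chosen after seeing the data, Tmem176a was at 0.18, Tmem176b at 0.06 and Ms4a6b at 0.02, while Ms4a7 was at -0.55. Over the 17 settings Ms4a7 lay between -1.16 and -0.55 and Tmem176b between -1.21 and 0.06. Of the pairs of gene and cluster, 11 became 23 at 1.5-fold. With cells that had a Ptprc UMI the count was 7, but out of fewer pairs, so it does not show a fall. The shares of all genes past the mark under these settings are not given here. A looser mark lets more of all genes pass too, so these counts alone do not describe the 7 genes. The count in granulocytic-like cells stayed at 0. Depth limits the granulocytic-like cells, where no gene had 200 UMIs, and the shallow clusters, where 360 of the Fabp5/Lgals1 cells were below 1000 UMIs.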
